A study of Danio rerio with 8 samples.

Results

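Translation initiation factors (eIFs) and elongation factors (eEFs) were examined in sorted islet cells of the zebrafish pancreas. The genes were chosen by a rule on their names, set with earlier results of these data known. It took every gene row whose name begins with eif and a digit from 1 to 6, or with eef and 1 or 2. Upper and lower case were treated alike, and the eIF2 kinases (eif2ak) were left out. This gave 80 of 31953 gene rows, of which 76 passed the low-count filter and were tested. All 8 libraries came from pancreas of fish at 30 days post fertilization with normal growth that carried Tg(ins:BB1.0L), a transgene named for the insulin gene ins, together with TgBAC(sst1.1:memEGFP), an EGFP transgene named for the somatostatin gene sst1.1. Cells were separated by fluorescence-activated sorting into 3 libraries of the sst1.1+ins+ group (here also double-positive), 3 of the sst1.1+ group (somatostatin cells) and 2 of the ins+ group (beta cells). Whether libraries of a group are separate animals is not stated, so the tests reflect library-to-library spread, which may be technical.

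Initiation begins when the initiator tRNA, carried by GTP-bound eIF2, joins the small ribosomal subunit together with eIF1, eIF1A, eIF3 and eIF5. The cap-binding complex eIF4F, made of the cap-binding protein eIF4E, the scaffold eIF4G and the RNA helicase eIF4A, brings this subunit to the mRNA, and eIF5B then joins the large subunit. In elongation, eEF1A delivers charged tRNAs, the eEF1B subunits reload eEF1A with GTP, eEF2 moves the ribosome along and eIF5A helps it past difficult stretches. Islet endocrine cells export large amounts of peptide hormone, and protein synthesis in beta cells is known to be adjusted through eIF2, its exchange factor eIF2B and the eIF4E-binding proteins (4E-BPs).

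Gene totals ran from 16948429 counts in ins+ replicate 2 to 30374029 in sst1.1+ replicate 1. Sorting was visible in the hormones: ins took 23.8 to 25.8% of counts in the ins+ libraries, 11.1 to 13.1% in the double-positive ones and 0.0642 to 0.125% in the sst1.1+ ones, and sst1.1 took 4.35 to 5.56%, 16.7 to 20.2% and 25.4 to 28.9%. Levels below are CPM, each gene's counts relative to the library total, with totals scaled by TMM, a normalization that offsets the weight of a few abundant genes. Transcript lengths were not used, so sums over genes, rankings of genes and shares of a paralog depend on length as well. Levels, sums and shares are therefore read between libraries and not as amounts of one gene against another. Other gene lists, also chosen with earlier results known, moved with the groups. The summed level of 28 immediate early and heat shock genes was 35280 to 38630 CPM in the sst1.1+ libraries, 22330 to 26720 in the double-positive ones and 9089 to 9335 in the ins+ ones. For 13 ductal and epithelial genes the sums were, in the same order, 827 to 1209, 629 to 865 and 339 to 409 CPM, with cftr at 0 counts in all sst1.1+ and ins+ libraries. For 9 immune genes they were 199.8 to 315, 55.7 to 127 and 78.7 to 98.3 CPM, with lcp1 and tyrobp at 0 counts in every library. For 13 mesenchymal and endothelial genes they were 21.2 to 95.6, 10.8 to 22.9 and 10.6 to 23.5 CPM, the highest being sst1.1+ replicate 3, with fli1a, lum and pecam1 at 0 counts in every library. For 8 genes of alpha cells and other hormones they were 41120 to 82500, 30860 to 38820 and 11700 to 25550 CPM, with 3 of 7 tested (pyyb, gcga and gcgb) lower in ins+ than in sst1.1+ and pyyb higher in sst1.1+ins+ than in ins+. For 15 acinar genes they were 33.9 to 143, 32.1 to 89.2 and 20 to 69.5 CPM. In ins+ against sst1.1+, 19 of 27 tested immediate early and heat shock genes, 6 of 13 ductal and epithelial genes and 1 of 3 immune genes (cd74a) fell, and 0 of 7 mesenchymal and endothelial and 0 of 13 acinar genes passed in edgeR (3 and 1 at an unadjusted p under 0.05, and 1 of each with DESeq2). Of all genes tested in edgeR, 2.42% were called lower in that comparison, and 17.6% had an unadjusted p under 0.05 in either direction. The part of these lists in the results below was not tested.

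The factors together took 1.33 to 1.76% of counts in the sst1.1+ libraries, 1.27 to 1.56% in the double-positive ones and 1.84 to 1.86% in the ins+ ones. Their summed level was 13520, 13770 and 18200 CPM in the sst1.1+ libraries, 14090, 13240 and 15540 in the double-positive libraries and 18250 and 18510 in the ins+ libraries. The eEF1 genes held the largest part of these counts, at 5221, 5268 and 8104 CPM in sst1.1+ and 8303 and 8680 in ins+. The eEF2 genes summed to 1294 to 2409 and 2475 to 2512 CPM. In the same order, eIF3 genes summed to 2103 to 2608 and 2312 to 2458 CPM, and eIF5A genes to 1811 to 1846 and 1815. For eIF4F and its helpers the sums were 1169 to 1368 and 1384 to 1428 CPM. One library stood apart within its own group in the sums of all factors, eEF1, eEF2 and eIF4F with its helpers, but not of eIF5A. In those sums sst1.1+ replicate 3 lay close to the ins+ libraries and far from the other sst1.1+ libraries. In the sums of eIF3 and eIF2 genes it lay above every other library, at 2608 and 545 CPM. The ins+ libraries were at 2312 to 2458 and 456 to 488 CPM there. In the eIF2B sum it was the lowest sst1.1+ library, at 134 CPM. Its ins and sst1.1 shares, 0.104 and 28.9%, were those of its group. It was the highest of all libraries in the ductal and epithelial, immune, and mesenchymal and endothelial sums (1209, 315 and 95.6 CPM). It was not the highest in the acinar sum or in that of alpha cells and other hormones, and the part of these lists was not tested. Over the tested genes, its log2 CPM correlated at 0.838 and 0.834 with the other sst1.1+ libraries and at 0.8 and 0.793 with the ins+ ones. It was singled out by its levels in the factor genes themselves. Leaving it out was therefore bound to widen differences where it lies near ins+, and fits without it give no independent support there. In bulk samples, fewer cells of a type and less RNA per cell cannot be told apart.

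Between ins+ and sst1.1+, 1 of 76 tested factors rose in ins+, the elongation factor gene eef1a1a, and 0 fell (edgeR quasi-likelihood test, adjusted p under 0.05 over 16418 genes). Over all genes tested 4.03% were called, 1.61% higher and 2.42% lower, beside 1.32% of the factors. At an unadjusted p under 0.05 there were 15 factors, 19.7%, against 17.6% of all genes. The median log2 fold change was 0.040 for the factors and -0.071 for all genes, and the median size of change, in either direction, was 0.39 and 0.75. In 57 of 76 factors the change was under 1.5-fold, and in 35 the 95% interval lay within 2-fold in both directions. The ins+ libraries all lay above the sst1.1+ libraries for 18 factors (23.7%, against 15.7% of all genes) and all below them for 14 (18.4%, against 17.7%). DESeq2 called 4 factors and limma-voom 5. DESeq2 also called more of all genes than edgeR did, as given at the end, so its larger count is not particular to the factors. Shares of all genes are not given for limma-voom or for fits without a library. The same holds for other tools in the other comparisons, so those factor counts have no background beside them. Without sst1.1+ replicate 3 edgeR called 5 factors. Without ins+ replicate 1 it called 2, with 1 ins+ library left, which is assumed to vary like the libraries of the other groups.

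Between sst1.1+ins+ and sst1.1+, 0 of 76 factors passed in edgeR, where 0.207% of all genes did, 0.177% higher and 0.0305% lower. At an unadjusted p under 0.05 there were 5 factors (6.58%, against 7.9% of all genes). DESeq2 called 1 factor, eef1a1a, and limma-voom 0. The double-positive libraries all lay above the sst1.1+ libraries for 5 factors (6.58%, against 7.38% of all genes) and all below them for 2 (2.63%, against 7.27%). In 53 of 76 factors the 95% interval lay within 2-fold in both directions.

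Between sst1.1+ins+ and ins+, 0 of 76 factors passed in edgeR, against 0.92% of all genes, 0.755% higher and 0.164% lower, and 13 had an unadjusted p under 0.05 (17.1%, against 12.1%). DESeq2 called 4 factors and limma-voom 3, all lower in the double-positive group. Without sst1.1+ replicate 3 edgeR called 3 factors, and without ins+ replicate 1, with 1 ins+ library left and its spread taken from the other groups, it called 1. The double-positive libraries all lay below the ins+ libraries for 20 factors (26.3%, against 14% of all genes) and all above them for 7 (9.21%, against 16.4%). The 3 comparisons share their groups, so their values are not independent of each other. For 32 of 76 factors (42.1%) the double-positive mean lay between the means of the single-positive groups, against 46.7% of all genes. The double-positive mean was the lowest for 29 of 76 factors, against 3991 of 16418 genes. It was the highest for 15 factors, against 4695 genes, and these positions were not tested.

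**Figure D1:**
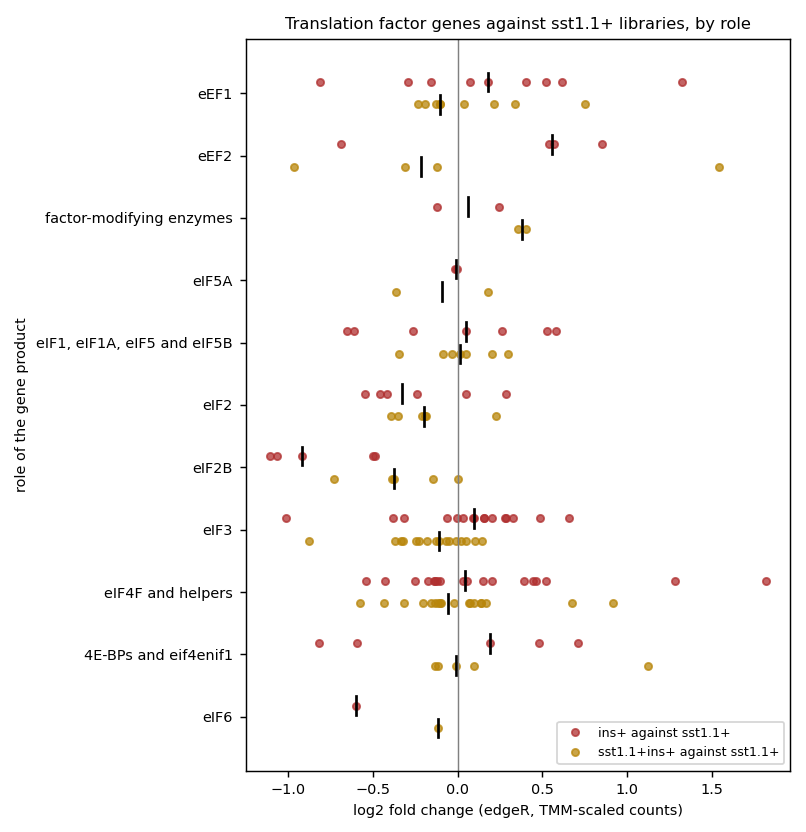
Log2 fold changes of the tested factor genes (points) against the sst1.1+ libraries, for ins+ and for sst1.1+ins+, by role; bars are the medians of each role, and the point of eif3bb, which rests on few counts, is not drawn but is in the median. The eEF1 point farthest right is eef1a1a in ins+ (1.33 on the log2 scale), and all 5 eIF2B points of ins+ lie left of 0.

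The elongation factors held the single call. The gene eef1a1a (ENSDARG00000039502) encodes a form of eEF1A, the GTPase that brings charged tRNA to the ribosome. Its level was 53.8, 44.6 and 54.6 CPM in the sst1.1+ libraries, 76.8, 78.1 and 102 in the double-positive libraries and 121 and 135 in the ins+ libraries. The 3 groups did not overlap, with the double-positive libraries in the middle. How reads shared with near-identical copies were counted is not stated, so values of paralogs carry that uncertainty. Levels averaged 50.98 ± 5.52 CPM in the sst1.1+ group (SD, n = 3), 85.7 ± 14.2 in the double-positive group (SD, n = 3) and 128 ± 9.74 in the ins+ group (SD, n = 2), and means of other factors are given with the same SD and n. The level of eef1a1a was 2.51-fold higher in ins+ than in sst1.1+ (log2 fold change 1.33 ± 0.20 SE, edgeR adjusted p = 0.00320). The call was kept in all 17 alternatives tried, with adjusted p from 3.53e-07 to 0.0335. Against sst1.1+, the double-positive level was 1.68-fold (log2 fold change 0.75 ± 0.18 SE, 95% interval 0.35 to 1.15) and did not pass (edgeR adjusted p = 0.192), and over the alternatives its adjusted p ran from 0.0218 with DESeq2 to 0.641. Against ins+ the double-positive log2 fold change was -0.58 ± 0.20 SE (edgeR adjusted p = 0.261).

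The other eEF1A genes gave other values. The gene eef1a1l1 stood at 3524, 3675 and 5855 CPM in the sst1.1+ libraries, 3811, 3823 and 4520 in the double-positive libraries and 6088 and 6389 in the ins+ libraries. The sst1.1+ libraries were split here, replicate 3 lying just under the ins+ libraries and above all double-positive ones. For ins+ against sst1.1+ the log2 fold change was 0.52 ± 0.19 SE (edgeR adjusted p = 0.185). The gene was called in 4 of 17 alternatives, with adjusted p from 0.00481 to 0.434. Without sst1.1+ replicate 3, singled out by its level here, the log2 fold change was 0.79 (adjusted p = 0.00481). For sst1.1+ins+ against sst1.1+ it was -0.10 ± 0.18 SE (edgeR adjusted p = 1), and 0.17 without that library, so the sign rests on it. For sst1.1+ins+ against ins+ it was -0.62 ± 0.19 SE (edgeR adjusted p = 0.202), and -0.62 (adjusted p = 0.0234) without that library, which is in neither group but enters the shared estimate of spread. This difference was called in 5 of 17 alternatives, with adjusted p from 0.00406 to 0.493. The gene eef1a1b averaged 14.7 ± 9.89 (sst1.1+), 18.5 ± 8.27 (double-positive) and 19.4 ± 0.447 CPM (ins+), with overlapping libraries. The gene eef1a2, whose product is the eEF1A of muscle and neurons in mammals, had 0 counts in all 8 libraries.

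**Figure D2:**
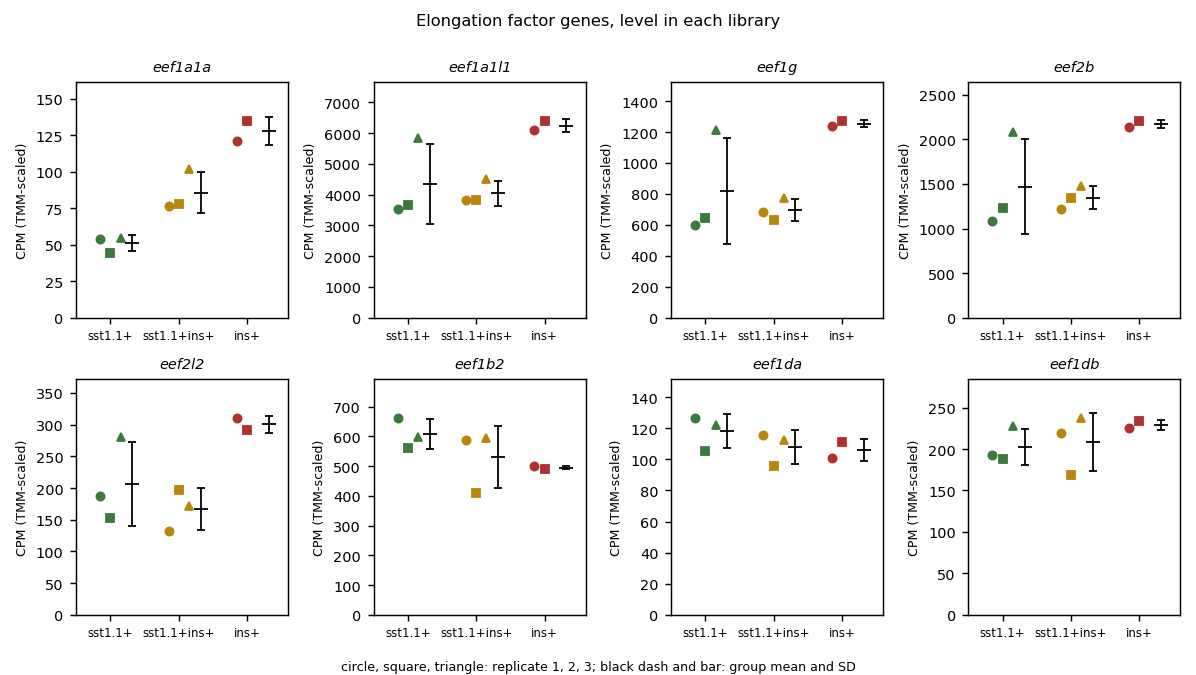
Level (CPM on TMM-scaled totals, axis from 0) of elongation factor genes in each library (circle, square and triangle are replicates 1, 2 and 3), with group means and SD. In eef1a1a the 3 groups are separate, whereas in eef1a1l1, eef1g, eef2b and eef2l2 the triangle of sst1.1+ replicate 3 lies near the ins+ libraries.

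The genes of the subunits that recharge eEF1A did not pass in edgeR. The gamma subunit gene eef1g stood at 602, 641 and 1210 CPM in the sst1.1+ libraries, 681, 630.3 and 777 in the double-positive libraries and 1238 and 1270 in the ins+ libraries, again with sst1.1+ replicate 3 at nearly the level of ins+. For ins+ against sst1.1+ its log2 fold change was 0.62 ± 0.25 SE (edgeR adjusted p = 0.230). The gene was called in 4 of 17 alternatives, with adjusted p from 0.00306 to 0.455. Without sst1.1+ replicate 3, singled out by its level here, the log2 fold change was 1.01 (adjusted p = 0.00306). Between sst1.1+ins+ and ins+ it was -0.85 ± 0.25 SE (edgeR adjusted p = 0.180, called in 6 of 17 alternatives, with adjusted p from 0.000425 to 0.427). The catalytic exchange subunit gene eef1b2 averaged 606 ± 50.5 (sst1.1+), 531 ± 105 (double-positive) and 495 ± 5.37 CPM (ins+), and its ins+ mean was the lowest. The delta subunit gene eef1da averaged 118 ± 10.99 (sst1.1+), 108 ± 10.9 (double-positive) and 106 ± 7.15 CPM (ins+), and eef1db averaged 203 ± 21.6 (sst1.1+), 208 ± 35.2 (double-positive) and 229 ± 5.77 CPM (ins+). The epsilon subunit gene eef1e1, whose product sits in the tRNA synthetase complex, averaged 34.5 ± 13.3 (sst1.1+), 32.2 ± 14.7 (double-positive) and 19.7 ± 11.8 CPM (ins+), with a log2 fold change of 0.71 ± 0.51 SE for sst1.1+ins+ against ins+ (edgeR adjusted p = 0.619). The row EEF1D (2 of 3) lay between 0.948 and 1.62 CPM in the 8 libraries.

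The translocation factor genes eef2b and eef2l2 had sst1.1+ replicate 3 near ins+ as well. The level of eef2b was 1090, 1234 and 2079 CPM in the sst1.1+ libraries, 1222, 1342 and 1478 in the double-positive libraries and 2141 and 2204 in the ins+ libraries. The double-positive libraries and the other sst1.1+ libraries lay lower and overlapped. The log2 fold change was 0.57 ± 0.23 SE for ins+ against sst1.1+ (edgeR adjusted p = 0.219). The gene was called in 4 of 17 alternatives, with adjusted p from 0.00445 to 0.449. Without sst1.1+ replicate 3, singled out by its level here, the log2 fold change was 0.90 (adjusted p = 0.00445). Between sst1.1+ins+ and ins+ it was -0.69 ± 0.23 SE (edgeR adjusted p = 0.229, called in 5 of 17 alternatives, with adjusted p from 0.00430 to 0.501). The level of eef2l2, called EEF2 in the gene names table, was 187, 153 and 280.4 CPM in the sst1.1+ libraries, 131, 198 and 172 in the double-positive libraries and 310.1 and 291 in the ins+ libraries. Its log2 fold change between sst1.1+ins+ and ins+ was -0.85 ± 0.25 SE (edgeR adjusted p = 0.170, called in 3 of 17 alternatives, with adjusted p from 0.00545 to 0.428).

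The eEF2 gene eef2a.1 was ordered otherwise, at 16.6, 31.5 and 47.7 CPM in the sst1.1+ libraries, 23.1, 12.3 and 13.6 in the double-positive libraries and 24.6 and 14.97 in the ins+ libraries. Its log2 fold change for sst1.1+ins+ against sst1.1+ was -0.97 ± 0.41 SE (edgeR adjusted p = 0.603), with overlapping libraries. The gene eef2a.2 lay between 0.200 and 2.89 CPM in the 8 libraries. The eEF2 kinase gene eef2k, whose product inhibits eEF2, stood at 33.7, 29.7 and 38.4 CPM in the sst1.1+ libraries, 40.8, 44.4 and 45.3 in the double-positive libraries and 39.1 and 41.2 in the ins+ libraries, and every sst1.1+ library lay below every other. Its log2 fold change for sst1.1+ins+ against sst1.1+ was 0.36 ± 0.21 SE, and its comparisons did not pass (edgeR adjusted p = 0.644, 0.771 and 0.923 for ins+ against sst1.1+, sst1.1+ins+ against sst1.1+ and sst1.1+ins+ against ins+). The gene eef2kmt, for a methyltransferase of eEF2, averaged 2.47 ± 0.992 (sst1.1+), 3.26 ± 2.604 (double-positive) and 2.26 ± 1.53 CPM (ins+).

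In mammals the mRNAs of eEF1A, eEF2 and the ribosomal proteins share a terminal oligopyrimidine (TOP) start that places them under mTOR. The summed level of 77 cytosolic ribosomal protein genes was 54030, 52070 and 59380 CPM in the sst1.1+ libraries, 57000, 52050 and 61650 in the double-positive libraries and 65420 and 66050 in the ins+ libraries. The ins+ libraries were highest, and sst1.1+ replicate 3 was the highest of its group. Of 76 tested, 3 rose and 0 fell in ins+ against sst1.1+ in edgeR, beside 1.61% higher and 2.42% lower of all genes. The median log2 fold change of these 76 was 0.31, against -0.071 for all genes. With all 8 libraries DESeq2 called 22 and limma-voom 20, and edgeR without sst1.1+ replicate 3 called 21. DESeq2 also called more of all genes than edgeR did, and for limma-voom and the fit without that library the share of all genes is not given. That library was the sst1.1+ one nearest to ins+ in this sum, so leaving it out was bound to widen the difference. In the edgeR fit of all 8 libraries, 31 of 76 had an unadjusted p under 0.05 in ins+ against sst1.1+, where 17.6% of all genes did. For sst1.1+ins+ against ins+ there were 36 of 76, against 12.1% of all genes. For sst1.1+ins+ against sst1.1+ there were 0 of 76, against 7.9% of all genes.

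The eIF5A genes differed little between ins+ and sst1.1+. The gene eif5a stood at 1359, 1331 and 1207 CPM in the sst1.1+ libraries, 1512, 1262 and 1638 in the double-positive libraries and 1329 and 1256 in the ins+ libraries. Its log2 fold change between ins+ and sst1.1+ was -0.007 ± 0.14 SE (95% interval -0.31 to 0.30, edgeR adjusted p = 0.993). Its paralog eif5a2 stood at 464, 515 and 604 CPM in the sst1.1+ libraries, 446, 345 and 438 in the double-positive libraries and 486 and 559 in the ins+ libraries. All double-positive libraries lay below all others in eif5a2, and the difference did not pass (edgeR adjusted p = 0.591 against sst1.1+ and 0.436 against ins+).

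Within a library, the share of a paralog in the counts of a pair does not depend on the scaling. The pairs were chosen after their values were seen, so no test is given, and reads shared between similar copies could have been assigned to either. Of the counts of eef1a1a and eef1a1l1, eef1a1a took 1.5, 1.2 and 0.923% in the sst1.1+ libraries, 1.98, 2 and 2.21% in the double-positive libraries and 1.95 and 2.06% in the ins+ libraries. The double-positive and ins+ libraries overlapped on this measure, and both lay above the sst1.1+ libraries. Of the counts of eif5a2 and eif5a, eif5a2 took 25.5, 27.9 and 33.4% in the sst1.1+ libraries, 22.8, 21.5 and 21.1% in the double-positive libraries and 26.8 and 30.8% in the ins+ libraries. Every double-positive library was below every other library. The helicase gene eif4a1a took 8.73, 9.06 and 7.06% in the sst1.1+ libraries, 7.83, 8.89 and 9.14% in the double-positive libraries and 6.85 and 5.67% in the ins+ libraries of its counts together with eif4a1b, with the ins+ libraries lowest.

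**Figure D3:**
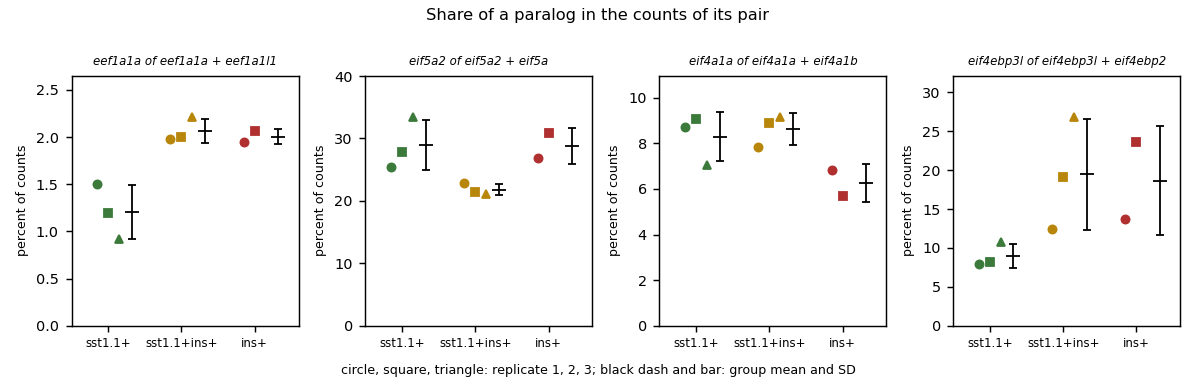
Share (percent of counts, axis from 0) that the first gene takes of the counts of both genes of a pair, in each library, with group means and SD. The eef1a1a share is lowest in the sst1.1+ libraries (0.923 to 1.5%), and the eif5a2 share is lowest in the sst1.1+ins+ libraries (21.1 to 22.8%).

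The eIF2B complex, the exchange factor that reloads eIF2 with GTP, had fitted values below 0 for all 5 subunit genes in ins+ against sst1.1+, but 0 of 5 passed in edgeR, DESeq2 or limma-voom, and 3 had an unadjusted p under 0.05. Their median log2 fold change was -0.92, against -0.071 for all genes. The 5 genes summed to 188, 201 and 134 CPM in the sst1.1+ libraries, 157, 138 and 146 in the double-positive libraries and 92.6 and 115 in the ins+ libraries. The ins+ libraries were the lowest, and sst1.1+ replicate 3 was the sst1.1+ library nearest to them. The alpha subunit gene eif2b1 stood at 44.7, 63.9 and 23.9 CPM in the sst1.1+ libraries, 33.8, 44.4 and 24.2 in the double-positive libraries and 16.6 and 25.5 in the ins+ libraries, so that the groups overlapped. Its log2 fold change in ins+ against sst1.1+ was -1.07 ± 0.42 SE (edgeR adjusted p = 0.209, called in 2 of 17 alternatives, with adjusted p from 0.0319 to 0.527).

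The gamma subunit gene eif2b3 stood at 35.7, 18.3 and 27.6 CPM in the sst1.1+ libraries, 20.9, 12.4 and 15.8 in the double-positive libraries and 13.4 and 15.4 in the ins+ libraries. The ins+ libraries lay below all sst1.1+ libraries (log2 fold change -0.92 ± 0.39 SE, edgeR adjusted p = 0.250). The catalytic epsilon subunit gene eif2b5 stood at 30.1, 17.3 and 11.8 CPM in the sst1.1+ libraries, 16.5, 17.7 and 10.97 in the double-positive libraries and 9.23 and 9.10 in the ins+ libraries, with the ins+ libraries lowest (edgeR adjusted p = 0.247 for ins+ against sst1.1+). The delta subunit gene eif2b4 averaged 59.9 ± 14.3 (sst1.1+), 59.9 ± 19.8 (double-positive) and 42.7 ± 11.1 CPM (ins+), with a log2 fold change of -0.49 ± 0.32 SE for ins+ against sst1.1+ (edgeR adjusted p = 0.461). The beta subunit gene eif2b2 averaged 23.5 ± 3.71 (sst1.1+), 21.2 ± 4.41 (double-positive) and 16.6 ± 2.58 CPM (ins+).

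**Figure D4:**
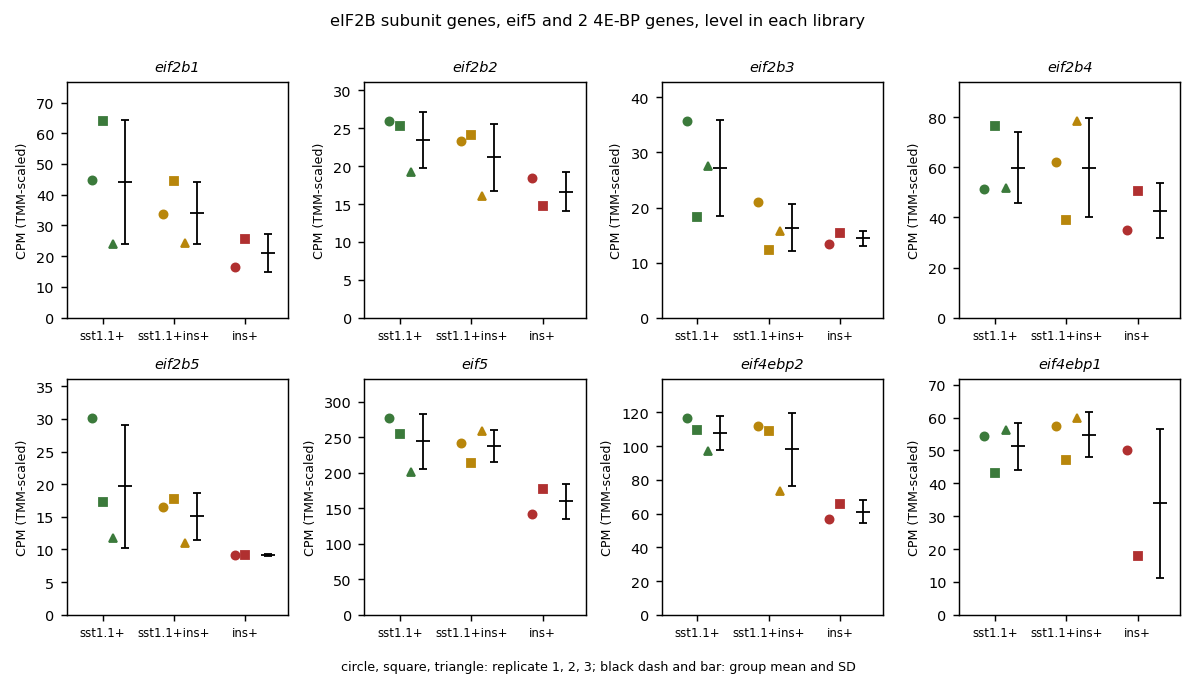
Level (CPM on TMM-scaled totals, axis from 0) of the 5 eIF2B subunit genes and of initiation regulators in each library, with group means and SD. The ins+ libraries lie at the low end in eif2b5 and eif4ebp2, and in eif4ebp1 they are 50.02 and 17.97 CPM.

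The genes grouped with eIF2 by name, which are its subunit genes and the separate factors eif2a and eif2d, were mixed. Of these, 0 of 6 passed in edgeR, DESeq2 or limma-voom in any of the 3 comparisons. At an unadjusted p under 0.05 there was 1, in sst1.1+ins+ against sst1.1+. The gamma subunit gene eif2s3 stood at 205, 187 and 269 CPM in the sst1.1+ libraries, 191, 193 and 185 in the double-positive libraries and 247 and 207 in the ins+ libraries, with a log2 fold change of 0.048 ± 0.18 SE for ins+ against sst1.1+ (edgeR adjusted p = 0.938), whose sign changed on leaving out sst1.1+ replicate 1, sst1.1+ replicate 2 or ins+ replicate 1. The beta subunit gene eif2s2 averaged 116 ± 16.5 (sst1.1+), 88.3 ± 10.6 (double-positive) and 86.6 ± 8.05 CPM (ins+), both insulin-positive groups lying below all sst1.1+ libraries (edgeR adjusted p = 0.300 for ins+ and 0.629 for sst1.1+ins+). The alpha subunit, which the eIF2 kinases phosphorylate, has a pair of genes whose sst1.1+ and ins+ means stood in opposite order: eif2s1a averaged 33.7 ± 4.17 (sst1.1+), 29.6 ± 7.20 (double-positive) and 24.6 ± 1.67 CPM (ins+). Its paralog eif2s1b averaged 87.2 ± 14.9 (sst1.1+), 76.4 ± 19.2 (double-positive) and 106 ± 8.52 CPM (ins+). The alternative tRNA-binding factor gene eif2a averaged 29.7 ± 10.8 (sst1.1+), 23.3 ± 6.98 (double-positive) and 20.3 ± 11.46 CPM (ins+), and eif2d averaged 7.92 ± 6.13 (sst1.1+), 9.27 ± 0.454 (double-positive) and 6.70 ± 3.08 CPM (ins+).

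Among the factors of start-codon recognition and subunit joining, 0 of 7 passed in edgeR in any of the 3 comparisons. For ins+ against sst1.1+, 2 had an unadjusted p under 0.05 and DESeq2 called 1. The gene eif5, for the GTPase activator of eIF2, stood at 277, 254 and 201 CPM in the sst1.1+ libraries, 242, 213 and 258 in the double-positive libraries and 142 and 178 in the ins+ libraries. Both ins+ libraries lay below all others. The log2 fold change in ins+ against sst1.1+ was -0.61 ± 0.19 SE (edgeR adjusted p = 0.103). The gene was called in 2 of 17 alternatives, with adjusted p from 0.0196 to 0.409. Without sst1.1+ replicate 3, the sst1.1+ library nearest to ins+ here, the log2 fold change was -0.73 (adjusted p = 0.0422). The subunit-joining GTPase gene eif5b stood at 67.6, 66.00 and 70.6 CPM in the sst1.1+ libraries, 66.1, 88.9 and 80.00 in the double-positive libraries and 101 and 95.3 in the ins+ libraries, with ins+ above all others (edgeR adjusted p = 0.168 against sst1.1+).

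A pair of rows shares a name up to its case. The row eif1b (ENSDARG00000012688, called EIF1 in the gene names table) averaged 441 ± 38.8 (sst1.1+), 415 ± 36.4 (double-positive) and 529 ± 39.1 CPM (ins+), with a log2 fold change of 0.26 ± 0.15 SE for ins+ against sst1.1+ (edgeR adjusted p = 0.384). The row EIF1B (ENSDARG00000029445) averaged 41.4 ± 8.36 (sst1.1+), 32.5 ± 9.17 (double-positive) and 34.6 ± 0.134 CPM (ins+). The eIF1A gene eif1axb averaged 153 ± 9.53 (sst1.1+), 154 ± 15.6 (double-positive) and 158 ± 23.9 CPM (ins+), and its paralog eif1axa averaged 7.64 ± 2.95 (sst1.1+), 7.91 ± 3.84 (double-positive) and 4.85 ± 3.27 CPM (ins+). The gene eif1ad averaged 24.3 ± 6.32 (sst1.1+), 29.8 ± 3.75 (double-positive) and 36.2 ± 3.61 CPM (ins+).

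Of the 18 eIF3 genes, which encode the large scaffold on the small subunit, 17 were tested and 0 passed in any comparison in edgeR, DESeq2 or limma-voom, with 2, 0 and 3 at an unadjusted p under 0.05. The median log2 fold change was 0.098 for ins+ against sst1.1+ (11 above 0 and 6 below), -0.11 for sst1.1+ins+ against sst1.1+ and -0.21 for sst1.1+ins+ against ins+ (4 above 0 and 13 below). The core subunit gene eif3ba stood at 437, 478 and 518 CPM in the sst1.1+ libraries, 429, 402 and 479 in the double-positive libraries and 387 and 345 in the ins+ libraries. The ins+ libraries lay below all others (log2 fold change -0.38 ± 0.15 SE against sst1.1+, edgeR adjusted p = 0.204). The row eif3s10, called EIF3A in the gene names table, was ordered the other way, at 64.2, 114 and 109.7 CPM in the sst1.1+ libraries, 75.8, 124 and 109.5 in the double-positive libraries and 148 and 155 in the ins+ libraries, with ins+ above all others (edgeR adjusted p = 0.227 against sst1.1+).

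The paralogs eif3ha and eif3hb encode the same subunit. The gene eif3ha averaged 94.5 ± 9.19 (sst1.1+), 93.9 ± 14.03 (double-positive) and 109 ± 2.54 CPM (ins+). The level of eif3hb was 26.5, 33.5 and 54.9 CPM in the sst1.1+ libraries, 30.6, 8.54 and 23.4 in the double-positive libraries and 23.8 and 14.2 in the ins+ libraries, with a log2 fold change of -1.01 ± 0.51 SE for ins+ against sst1.1+ (edgeR adjusted p = 0.337). The gene eif3k averaged 40.1 ± 10.7 (sst1.1+), 33.8 ± 9.68 (double-positive) and 56.2 ± 9.08 CPM (ins+), the double-positive libraries all lying below the ins+ ones (log2 fold change -0.73 ± 0.30 SE, edgeR adjusted p = 0.357). The subunit genes eif3f, eif3d and eif3c ranged over the 8 libraries from 235.3 to 299.0, from 172 to 244 and from 148 to 259 CPM. Those of eif3ea, eif3g, eif3i, eif3m and eif3s6ip (EIF3L in the gene names table) lay between 97.2 and 223 CPM, and those of eif3eb, eif3ja and eif3jb between 5.21 and 49.5 CPM. The paralog eif3bb lay at 0, 0 and 0.353 CPM in the sst1.1+ libraries, 0.852, 0 and 2.43 in the double-positive libraries and 0 and 0 in the ins+ libraries, too low for a fold, and EIF3J (3 of 3) had 0 counts in all 8 libraries.

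The cap-binding complex and its helpers held 20 genes, 18 of them tested, and 0 passed in edgeR in any of the 3 comparisons. For ins+ against sst1.1+, 2 had an unadjusted p under 0.05, and DESeq2 and limma-voom each called 1. The eIF4A helicase gene eif4a1b stood at 434, 479.6 and 524 CPM in the sst1.1+ libraries, 544, 469 and 497 in the double-positive libraries and 639.9 and 678 in the ins+ libraries. The ins+ libraries lay above all others, with a log2 fold change against sst1.1+ of 0.46 ± 0.14 SE (edgeR adjusted p = 0.105, called in 2 of 17 alternatives, with adjusted p from 0.0120 to 0.376). Its paralog eif4a1a averaged 43.04 ± 4.21 (sst1.1+), 47.3 ± 2.34 (double-positive) and 43.9 ± 4.47 CPM (ins+). The helicase gene eif4a2 averaged 38.7 ± 10.8 (sst1.1+), 36.01 ± 6.91 (double-positive) and 44.5 ± 0.474 CPM (ins+). The gene eif4a3, whose product belongs to the exon junction complex, averaged 48.5 ± 3.63 (sst1.1+), 50.7 ± 5.48 (double-positive) and 45.2 ± 0.405 CPM (ins+).

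Among cap-binding proteins, eif4eb averaged 60.7 ± 23.1 (sst1.1+), 56.00 ± 8.22 (double-positive) and 41.8 ± 12.7 CPM (ins+). Its paralog eif4ea averaged 11.4 ± 2.56 (sst1.1+), 12.8 ± 3.17 (double-positive) and 14.98 ± 0.751 CPM (ins+), and eif4e1c averaged 34.9 ± 8.58 (sst1.1+), 23.4 ± 7.10 (double-positive) and 31.8 ± 8.59 CPM (ins+). The cap-binding gene eif4e3 stood at 51.4, 34.3 and 63.2 CPM in the sst1.1+ libraries, 43.2, 28.3 and 38.9 in the double-positive libraries and 69.8 and 65.4 in the ins+ libraries, the double-positive libraries all below the ins+ ones (log2 fold change -0.88 ± 0.28 SE, edgeR adjusted p = 0.216). The gene eif4e2, whose product represses translation in mammals, averaged 7.01 ± 1.19 (sst1.1+), 11.2 ± 5.10 (double-positive) and 17.1 ± 9.41 CPM (ins+), and eif4e2rs1 averaged 38.3 ± 9.94 (sst1.1+), 34.4 ± 4.65 (double-positive) and 39.8 ± 5.32 CPM (ins+). The gene eif4e1b had 20 counts in sst1.1+ins+ replicate 1, 9 in replicate 2 and 0 in the other libraries, and was not tested.

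The scaffold gene eif4g1a averaged 67.7 ± 22.3 (sst1.1+), 63.2 ± 5.41 (double-positive) and 74.98 ± 2.64 CPM (ins+). The related genes eif4g2a and eif4g2b averaged, in turn, 74.95 ± 10.6 (sst1.1+), 60.1 ± 13.3 (double-positive) and 62.9 ± 8.49 CPM (ins+), and 183 ± 42.99 (sst1.1+), 181 ± 32.9 (double-positive) and 168 ± 27.8 CPM (ins+). The gene eif4g3b averaged 7.95 ± 2.25 (sst1.1+), 8.75 ± 0.843 (double-positive) and 11.4 ± 10.4 CPM (ins+). The row EIF4G3 (2 of 2) ranged from 0.658 to 16.6 CPM over the 8 libraries, and EIF4G1 (2 of 2) had 0 counts throughout. The helicase cofactor genes eif4ba, eif4bb and eif4h ranged from 8.97 to 13.0, from 35.1 to 62.5 and from 13.1 to 35.4 CPM.

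The 4E-BP genes, whose products hold eIF4E away from eIF4G until mTOR phosphorylates them, form a role of 5 genes with eif4enif1, of which 0 passed in edgeR in any of the 3 comparisons and 1 in each had an unadjusted p under 0.05. In ins+ against sst1.1+ DESeq2 called 1 and limma-voom 0. The gene eif4ebp2 stood at 117, 109.6 and 97.2 CPM in the sst1.1+ libraries, 112, 109 and 73.4 in the double-positive libraries and 56.6 and 65.9 in the ins+ libraries. Both ins+ libraries lay below all 6 others. Its log2 fold change was -0.82 ± 0.22 SE for ins+ against sst1.1+ (95% interval -1.31 to -0.33, edgeR adjusted p = 0.0705, called in 3 of 17 alternatives, with adjusted p from 0.0105 to 0.269). The gene eif4ebp3l stood at 10.2, 9.75 and 11.7 CPM in the sst1.1+ libraries, 15.99, 25.8 and 26.9 in the double-positive libraries and 8.98 and 20.4 in the ins+ libraries. All double-positive libraries lay above all sst1.1+ libraries (log2 fold change 1.12 ± 0.39 SE, edgeR adjusted p = 0.487). Of the counts of eif4ebp3l and eif4ebp2, eif4ebp3l took 8, 8.17 and 10.8% in the sst1.1+ libraries, 12.5, 19.1 and 26.8% in the double-positive libraries and 13.7 and 23.6% in the ins+ libraries, the ins+ and double-positive libraries all lying above the sst1.1+ ones.

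The level of eif4ebp1 was 54.4, 43.1 and 56.3 CPM in the sst1.1+ libraries, 57.5, 47.04 and 59.8 in the double-positive libraries and 50.02 and 17.97 in the ins+ libraries. The ins+ libraries were far apart, replicate 1 within the range of the other groups and replicate 2 below it. With both, the log2 fold change for ins+ against sst1.1+ was -0.59 ± 0.36 SE (edgeR adjusted p = 0.429), and without ins+ replicate 1 it was -1.51 (adjusted p = 0.0299), a value from 1 ins+ library with the spread of the other groups. For sst1.1+ins+ against ins+ it was 0.69 ± 0.36 SE (edgeR adjusted p = 0.480), and without ins+ replicate 1 it was 1.61 (adjusted p = 0.0465), again with 1 ins+ library and the spread of the other groups. The gene eif4ebp3 averaged 9.50 ± 4.31 (sst1.1+), 9.44 ± 3.16 (double-positive) and 15.5 ± 5.03 CPM (ins+), and eif4enif1, for the eIF4E transporter, averaged 7.38 ± 5.03 (sst1.1+), 6.81 ± 3.72 (double-positive) and 8.41 ± 1.51 CPM (ins+).

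The gene eif6, whose product keeps the large subunit apart from the small one, stood at 27.95, 25.8 and 23.4 CPM in the sst1.1+ libraries, 29.2, 22.2 and 19.8 in the double-positive libraries and 16.9 and 17.1 in the ins+ libraries. The ins+ libraries lay below all others, with a log2 fold change against sst1.1+ of -0.60 ± 0.31 SE (edgeR adjusted p = 0.345).

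**Figure D5:**
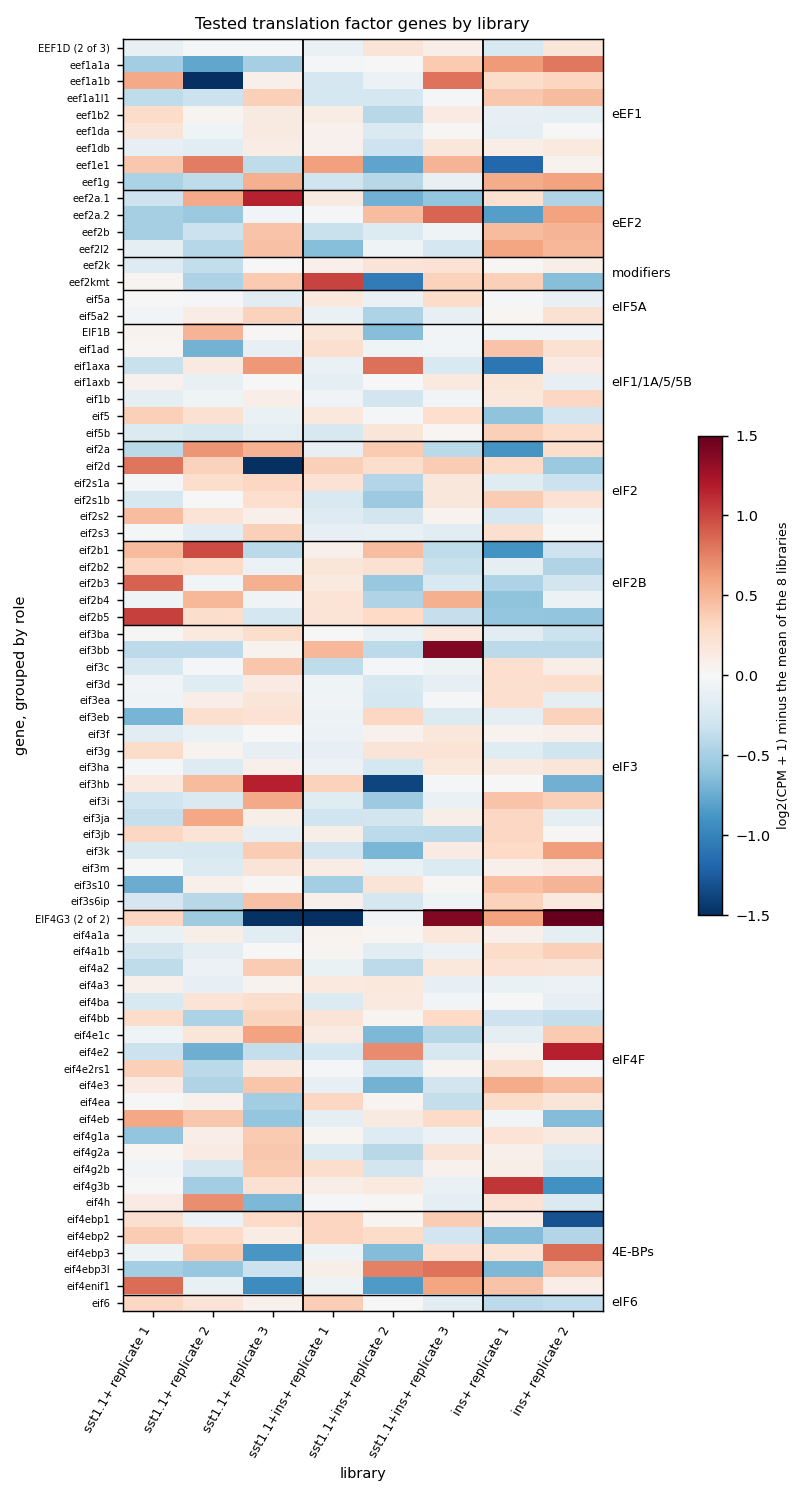
Each tested factor gene (rows, by role) in each library (columns), as log2(CPM + 1) minus the mean of the 8 libraries, with the color scale ending at 1.5 in either direction. Both ins+ columns are above the mean for eef1a1a, eef1a1l1, eef1g, eef2b and eef2l2 and below it for eif2b3, eif2b5, eif5 and eif6.

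Several genes on lists of pathways linked to these factors, also chosen with earlier results known, were called in ins+ against sst1.1+. Of 19 genes of the eIF2 kinases and the integrated stress response, 4 fell and 1 rose, with a median log2 fold change of -1.02 beside -0.071 for all genes. The count of 5 in edgeR was 9 with DESeq2, 3 with limma-voom and 7 in edgeR without sst1.1+ replicate 3. At an unadjusted p under 0.05 in edgeR there were 10 of 19, beside 17.6% of all genes. Of all genes tested in edgeR in that comparison, 1.61% were called higher and 2.42% lower. The eIF2 phosphatase subunit gene ppp1r15a fell from 368 ± 92.4 CPM in sst1.1+ (SD, n = 3) to 121 ± 11.6 in ins+ (SD, n = 2), a log2 fold change of -1.61 ± 0.26 SE, edgeR adjusted p = 0.00495. The stress-induced transcription factor gene ddit3 fell from 161 ± 13.1 to 31.1 ± 9.88 CPM (log2 fold change -2.37 ± 0.30 SE, edgeR adjusted p = 0.000954). On the same list atf5a fell from 14.6 ± 4.37 to 1.11 ± 0.0132 CPM, and dnajc3a, for an inhibitor of eIF2 kinases, from 85.3 ± 20.8 to 39.6 ± 10.4 CPM (edgeR adjusted p = 0.00757 and 0.0484). The lipoprotein receptor gene vldlr rose from 41.2 ± 4.37 to 128 ± 43.6 CPM (log2 fold change 1.64 ± 0.25 SE, edgeR adjusted p = 0.00316).

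Of 28 genes on a list of the mTOR pathway that also held eIF4E kinase (mknk) genes, 4 had an unadjusted p under 0.05 in edgeR. Of all genes 17.6% did. Their median log2 fold change was 0.25, beside -0.071 for all genes. In that list 1 rose, the mTOR inhibitor gene deptor, from 113 ± 21.2 to 235 ± 29.3 CPM (log2 fold change 1.06 ± 0.18 SE, edgeR adjusted p = 0.00723). The gene mknk2b, for a kinase of eIF4E, was the 1 that fell, from 639 ± 185 to 241 ± 8.77 CPM (log2 fold change -1.41 ± 0.21 SE, edgeR adjusted p = 0.00320). Its paralog mknk2a went the other way, from 1.1 ± 1.56 to 11.8 ± 0.353 CPM, and did not pass (edgeR adjusted p = 0.167). The related gene mknk1 averaged 27.1 ± 2.89 CPM in sst1.1+ and 24.4 ± 0.835 in ins+ (edgeR adjusted p = 0.847). Of 20 tested genes on a list for poly(A)-binding, termination and recycling that also held pdcd4a and pdcd4b, 1 fell and 1 rose. In this list 7 had an unadjusted p under 0.05 in edgeR, beside 17.6% of all genes. The median log2 fold change was -0.38, beside -0.071 for all genes. The gene pdcd4b, for an inhibitor of eIF4A, fell from 194 ± 29.02 to 46.2 ± 12.6 CPM (log2 fold change -2.07 ± 0.32 SE, edgeR adjusted p = 0.00360). Its paralog pdcd4a went the other way, from 80.3 ± 25.5 to 119 ± 20.8 CPM, and did not pass (edgeR adjusted p = 0.272). The poly(A)-binding protein gene pabpc1b rose from 241 ± 25.5 to 384 ± 21.9 CPM (log2 fold change 0.67 ± 0.17 SE, edgeR adjusted p = 0.0443).

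Of 20 cytosolic tRNA synthetase genes and 9 mitochondrial translation factor genes, 0 passed in edgeR, DESeq2 or limma-voom in any of the 3 comparisons. In ins+ against sst1.1+, 4 and 0 of them had an unadjusted p under 0.05 in edgeR, beside 17.6% of all genes. In sst1.1+ins+ against sst1.1+, 0 genes of these 5 lists passed in edgeR, while 5 stress response, 5 mTOR, 3 poly(A)-binding and termination, 4 synthetase and 0 mitochondrial genes had an unadjusted p under 0.05. Of all genes tested in that comparison, 0.207% passed and 7.9% had an unadjusted p under 0.05. DESeq2 called 2 stress response and 1 mTOR genes there, and limma-voom 1 of each. Against ins+, where 0.92% of all genes passed, ddit3 was the single edgeR call in the 5 lists. It stood at 87.9 ± 26.7 CPM in the double-positive libraries (log2 fold change 1.5 ± 0.29 SE, edgeR adjusted p = 0.0353). In that comparison DESeq2 called 6 stress response genes and 1 of the poly(A)-binding and termination list, limma-voom called 0 genes of the 5 lists, and edgeR without sst1.1+ replicate 3 called 2 stress response genes.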

How the data were processed

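The authors deposited raw gene counts from bulk Smart-Seq2 libraries, a full-length method without molecular identifiers. Per the submitters' processing notes and the series' design text, the tools were Trim Galore, HISAT2 with GRCz11, and featureCounts over exons. Versions, annotation, strand and multi-mapping settings were not stated there. Sequences and coordinates were not used here. The 92 ERCC rows and 1 EGFP row were left out (0.0145 to 0.0501% and 0.02 to 0.81% of counts). Tests used edgeR 4.0.16 in R 4.3.3 (expression filter by group, TMM, 1 mean per group over 8 libraries, quasi-likelihood F-test, Benjamini-Hochberg adjustment over 16418 genes, threshold 0.05), checked on simulated data. The simulation drew counts from the fitted model. Its checks of bias and recovery were limited to genes at higher levels, after a first criterion over all levels was not met. SE is the log2 fold change over the root of F. Alternatives used DESeq2 1.42.0, limma-voom (limma 3.58.1), other scalings and filters, a fit of 2 groups, a replicate block and each library left out. Members and lists were chosen with earlier results of these data known. Factors named were those called, the 5 largest changes per comparison at 20 CPM or more, the highest of each role (these with fold changes) and paralog sets (mostly as levels); others were named after their values were seen. Of 80 identifiers, 77 were in the gene names table. A floor of 3 counts equals 0.101 to 0.176 CPM, and covers counting error only.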

Additional observations from a re-analysis of the deposited data

How the results depend on the processing

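For ins+ against sst1.1+ the count of 1 factor became 6 with no low-count filter, 4 with DESeq2, 5 with limma-voom and 1 to 5 with each library left out. For sst1.1+ins+ against sst1.1+ the count of 0 became 1 with DESeq2 and was 0 with each library left out. For sst1.1+ins+ against ins+ the count of 0 became 4 with no low-count filter, 4 with DESeq2, 3 with limma-voom, 2 when only those groups were fitted and 0 to 3 with each library left out. RLE scaling, library totals, totals without hormone and mitochondrial genes and a 1 CPM filter left all 3 counts as they were; for the others the cause was not tested. Deviations from group means showed no pairing by replicate number. Their correlations ran from -0.029 to 0.013 for same-numbered libraries and from -0.039 to 0.04 for the others. With so few libraries per group this check cannot exclude a shared sort or batch. With the replicate block the counts were 6, 0 and 3. Over all genes, 662 were called in ins+ against sst1.1+, 1276 with no low-count filter, 1604 with DESeq2 and 383 when only those groups were fitted. The median of all genes in that comparison moved from -0.071 to -0.266 without ins+ replicate 1 and to -0.205 without ins+ replicate 2.

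Log2 fold changes near 0, all uncalled, changed sign, or in eif6 reached 0 after rounding. For eif5a in ins+ against sst1.1+ it was 0.021 with library totals, 0.006 with the replicate block and -0.058 to 0.030 with each library left out, and for eif2s3 -0.086 to 0.217 with each left out. In sst1.1+ins+ against sst1.1+, eif2b4 was -0.008 with RLE scaling, -0.008 with DESeq2 and -0.24 to 0.233 with each library left out. There eif4ebp2 was -0.24 to 0.038, eef1a1l1 -0.235 to 0.171, eef2b -0.299 to 0.213 and eif6 -0.292 to 0 with each left out. The ins+ group had 2 libraries, with fewer counts than any other library; with either left out, the other is assumed to vary like the libraries of the other groups.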
